A study of Mus musculus with 12 samples.

Results

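The comparison of the genotype group labelled Double with the group labelled WT was read across all measured genes of mouse hematopoietic stem and progenitor cells (HSPCs), the blood-forming cells of the marrow. Transcripts with a mean above 0 in that comparison were taken, and 1 transcript was kept per gene symbol, the one with the highest mean over the study's 3 comparisons. This gave 19602 genes of the 24016 symbols in the tables. The study set 4 genotype groups of C57BL/6 mice side by side, WT, Smc3, Npm1 and Double, with 3 RNA-seq libraries in each. Mice of every group, WT included, received pIpC, a mimic of double-stranded RNA, in 7 doses of 1 mg/mL given on alternate days from an age of 4 to 6 weeks. Their HSPCs were taken 4 to 6 weeks after treatment by lysis of red cells and depletion of lineage-positive cells. The labels name no allele, Cre driver or sex, nor whether each library is a separate mouse, so p-values measure only the spread between libraries. The series title pairs NPM1 with cohesin mutations in acute myeloid leukaemia (AML) and points to the DOCK1 and RAC2 axis, and Double is taken here, from that title and the names of the other groups, as carrying both an Npm1 and an Smc3 lesion.

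Npm1 encodes nucleophosmin, a shuttling chaperone of the nucleolus, and its mutant form in AML is displaced to the cytoplasm and goes along with high expression of HOXA and HOXB genes and of the cofactor MEIS1. Smc3 encodes a core subunit of cohesin, the ring complex that extrudes chromatin loops and holds sister chromatids together. Cohesin lesions are frequent partners of NPM1 mutations in AML, and loss of cohesin function in mouse HSPCs is known to skew differentiation toward the myeloid lineage.

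The authors deposited, for each genotype against WT, a mean of normalized counts over the 6 libraries, a log2 fold change with its standard error from DESeq2, and p-values, but no values per library. Each fold change below is therefore a moderated estimate with its model-based standard error, and the value in each library cannot be shown. Size factors, recovered from transcripts with a single-read mean, gave estimated depths of 27.83 to 35.37 M counts (M for 1e6) per Double library and 10.33 to 20.81 M per WT library, with a mean size factor 2.09 times as high in Double. The 4 Y-linked genes had a summed mean of 2280 normalized counts in the authors' deposited table of Double and WT, and of 3.8 in that of Npm1 and the same WT libraries. Male mice thus contributed to Double and not to WT. The same genes summed to 2022 in the comparison of Smc3 with these WT libraries. Of 5 tested sex-linked genes 0 were called in Double by the authors' DESeq2 test, with moderated log2 fold changes from -0.06 to 0.08. How many Double libraries were male cannot be read from these values. Sex, in at least part of the Double libraries, and depth differed along with genotype and cannot be told apart from it. The HSPC label fits the presence of Kit, the stem cell factor receptor, at a mean of 7661 normalized counts, of Cd34 at 4061, of Flt3 at 1576 and of Ly6a, which encodes Sca-1, at 221.4 in the authors' deposited table. Because each library holds a mixture of cells, fewer cells of a type and less RNA per cell cannot be told apart in any result below.

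The Double HSPCs combined a large rise of HoxA genes, a rise of p53-induced genes, and higher levels of genes of early granulocytes, eosinophils, basophils and monocytes, with lower levels of erythroid, type I interferon, replication, respiratory chain and ribosomal protein genes. A gene was counted as changed where the authors' Benjamini-Hochberg adjusted p of the DESeq2 Wald test, written q below, was under 0.05. Of 13217 genes with an adjusted p, 2470 changed, or 18.7%. The higher genes numbered 1172, or 8.87%, and the lower genes 1298, or 9.82%. Most changes were small, since 88.2% of tested genes lay within 0.5 of 0 on the log2 scale. Only 61 higher genes, 0.462% of those tested, and 95 lower genes, 0.719%, moved by 1 or more on the log2 scale. Among all tested genes the median log2 fold change was 0.00996, and genes with a mean of at least 50 had a median standard error of 0.133. No adjusted p was given for 6352 genes with low means, and 33 genes had no p at all.

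**Figure D1:**
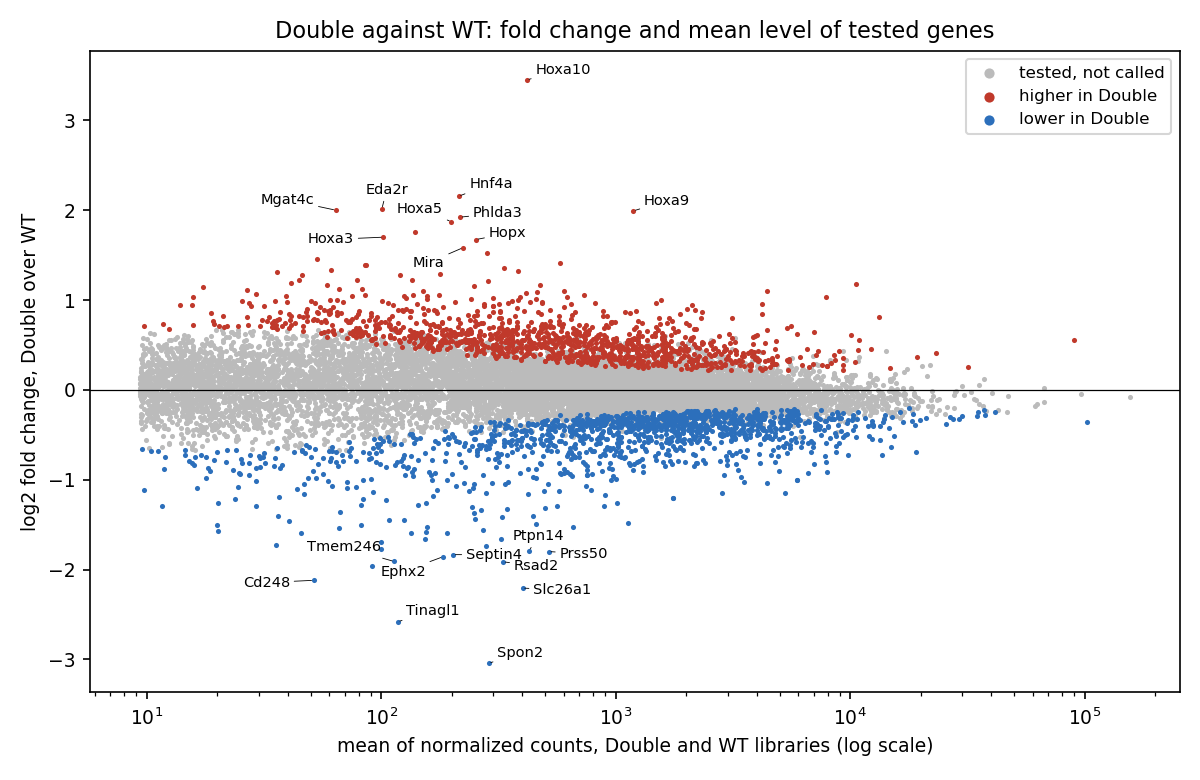
Log2 fold change of Double over WT (vertical axis) against the mean of normalized counts over the Double and WT libraries (horizontal axis, log scale) for the 13217 tested genes. Red points are the 1172 genes called higher and blue points the 1298 called lower. The labelled genes are the 10 highest and 10 lowest with a mean of at least 50, leaving out receptor segments and symbols starting Gm or ending in Rik. Hoxa10 stands alone at the top at 3.45 and Spon2 at the bottom at -3.04.

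The transcripts named by the genotypes did not pass the test. Smc3 stood at -0.03 ± 0.11 (± is the standard error throughout, 3 against 3 libraries, q = 0.917) and Npm1 at -0.06 ± 0.16 (q = 0.853) in the authors' deposited table. As no allele is named, these values check no label, and the groups are those of the labels alone. Dock1, an activator of Rac GTPases, rose by 0.53 ± 0.19 (q = 0.0403) in the authors' deposited table, a call that ended when the trend of fold change with transcript GC content was removed (adjusted p = 0.0778). Rac2, the Rac GTPase of blood cells, stood at 0.10 ± 0.15 (q = 0.71) in the authors' deposited table. Both genes were higher in Double than in Npm1, but the differences from Smc3 did not pass the z test. The differences of their log2 fold changes were 1.15 ± 0.29 for Dock1 (adjusted p = 0.00349) and 0.77 ± 0.21 for Rac2 (adjusted p = 0.0071), from a z test with Benjamini-Hochberg adjustment over 18343 genes. Dock1 had fallen to -0.63 ± 0.21 and Rac2 to -0.68 ± 0.15 in the authors' deposited table of Npm1 against WT. In that of Smc3 against WT, Dock1 stood at 0.36 ± 0.20 (q = 0.222) and Rac2 rose by 0.38 ± 0.14 (q = 0.0397). The differences of Double from Smc3 were 0.17 ± 0.28 for Dock1 and -0.28 ± 0.20 for Rac2 (adjusted p = 1.0 for both).

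In the wider list of DOCK, ELMO and RAC genes, which link surface receptors to actin, 11 of 31 tested members rose and 1 fell, against 8.87% and 9.82% of all tested genes, and the list had a median log2 fold change of 0.22. With the GC trend removed 9 members rose and 1 fell. Of 11 tested genes with symbols starting Dock, 4 were higher, and 1 with the GC trend removed. The calls of Dock4 and Dock10 ended with it (adjusted p = 0.083 and 0.229), as did that of Dock1. Elmo1, the partner that DOCK proteins need for Rac activation, rose by 0.62 ± 0.15 (q = 0.000677) in the authors' deposited table. Vav3, a further Rac activator, rose by 0.69 ± 0.17 (q = 0.00122), and the Rac inhibitor Arhgap15 rose by 0.66 ± 0.16 (q = 0.000533), in the authors' deposited table. Dock11, an activator of Cdc42, rose by 0.57 ± 0.11 (q = 8.36e-06) in the authors' deposited table. The member that fell was Cyfip2 of the WAVE complex, at -0.30 ± 0.11 (q = 0.0338) in the authors' deposited table, while its paralog Cyfip1 rose by 0.33 ± 0.09 (q = 0.00239). Activators and inhibitors of Rac were thus both among the genes that rose. The list had a median of -0.15 in Npm1 and 0.30 in Smc3, comparisons that share the WT libraries.

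The largest change of all was in the HoxA cluster, whose transcription factors keep progenitors immature and are silenced as blood cells mature. Hoxa10 rose by 3.45 ± 0.20, or 10.9-fold (q = 7.82e-60), and Hoxa9 by 1.99 ± 0.12, or 3.98-fold (q = 2.04e-58), in the authors' deposited table. Of 8 tested HoxA genes 7 rose and 0 fell, against 8.87% and 9.82% of all tested genes, with a list median of 1.61. The remaining one, Hoxa2, stood at 0.59. Hoxa5 rose by 1.87 ± 0.18, Hoxa3 by 1.70 ± 0.22, Hoxa7 by 1.52 ± 0.16, Hoxa6 by 1.46 ± 0.24 and Hoxa4 by 0.72 ± 0.25 in the authors' deposited table. Along chromosome 6 the called genes formed an unbroken run of 10 tested genes from Hoxa3 to Hoxa10, the longest run in this comparison. Within it the noncoding transcript Mira rose by 1.58 ± 0.17 (q = 8.02e-18) in the authors' deposited table. The libraries keep no record of strand, so reads of overlapping and antisense transcripts of the cluster cannot be told apart.

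The HoxB cluster had smaller values. Of 4 tested members 3 rose and 0 fell, against 8.87% and 9.82% of all tested genes. Hoxb4 rose by 0.79 ± 0.18 (q = 0.000203) and Hoxb3 by 0.68 ± 0.19 (q = 0.00371) in the authors' deposited table. Hoxb5, at a mean of only 15.79 normalized counts, rose by 1.04 ± 0.26 (q = 0.00108) there. Meis1, the cofactor that binds DNA beside HOXA9, rose by 0.46 ± 0.17 (q = 0.0471) in the authors' deposited table, and this call ended with the GC trend removed (adjusted p = 0.127). The related repressor Tgif2 fell to -0.62 ± 0.15 (q = 0.000748) in the authors' deposited table, and the other 7 tested TALE homeobox genes were not called. Among the chromatin complexes that set Hox expression, 0 of 15 menin, MLL and DOT1L complex genes rose and 2 fell, and 0 of 24 polycomb genes rose and 2 fell. The lowered shares, 13.3% and 8.33%, were near the 9.82% of all tested genes. Among 16 tested genes of cohesin, its loaders and CTCF, 0 rose and 0 fell by the authors' DESeq2 test, with log2 fold changes from -0.20 to 0.33. With the GC trend removed 2 of them were lower.

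Genes of the pathway of p53, the stress-activated tumour suppressor, formed the next group. Of 31 tested members 13 rose and 1 fell, or 41.9% and 3.23%, against 8.87% and 9.82% of all tested genes. With the GC trend removed 9 rose and 0 fell. The receptor Eda2r rose by 2.02 ± 0.26, or 4.05-fold (q = 9.33e-13), and Phlda3, which restrains Akt signalling, by 1.92 ± 0.22, or 3.79-fold (q = 3.24e-16), in the authors' deposited table. The RNA-binding protein gene Zmat3 rose by 1.41 ± 0.21 (q = 4.32e-09) and the cyclin gene Ccng1 by 0.95 ± 0.16 (q = 8.84e-08) in the authors' deposited table. Cdkn1a, which encodes the cell cycle inhibitor p21, rose by 0.79 ± 0.17, or 1.73-fold (q = 0.000138), in the authors' deposited table. The list's median was 0.24 in Double, 0.25 in Npm1 and 0.06 in Smc3, and all 3 comparisons share the WT libraries. In the authors' deposited table of Npm1, Eda2r stood at 1.89 ± 0.23, Phlda3 at 1.87 ± 0.17, Zmat3 at 1.70 ± 0.16 and Ccng1 at 1.26 ± 0.15, and the differences of Double from Npm1 did not pass the z test for these 4 genes. Cdkn1a stood at 0.17 ± 0.16 in Npm1 and -0.08 ± 0.24 in Smc3 in the authors' deposited tables, and the differences of Double from them, 0.62 ± 0.24 (adjusted p = 0.0927) and 0.86 ± 0.29 (adjusted p = 0.524), did not pass the z test. The member that fell, Bbc3, encodes the killer protein PUMA and stood at -0.61 ± 0.17 (q = 0.00574) in the authors' deposited table. That call ended with the GC trend removed (adjusted p = 0.121). Mdm2 (q = 0.0225) and Fas (q = 0.0191) were higher, and their calls also ended with the GC trend removed (adjusted p = 0.176 and 0.0684). Other genes of the pathway did not pass the test, among them the target Bax at 0.06 and Trp53, which encodes p53 itself, at -0.22.

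The 10 highest and 10 lowest genes were next set beside the same genes in the other genotypes. Besides the genes above, the highest were Hnf4a, a nuclear receptor best known from liver and gut, at 2.16 ± 0.22, the glycosyltransferase gene Mgat4c at 2.00 ± 0.26, and Hopx, a homeodomain protein that binds no DNA, at 1.67 ± 0.23 in the authors' deposited table. The lowest were Spon2, a secreted matrix protein, at -3.04 ± 0.20, or 8.24-fold lower, and Tinagl1, another secreted matrix protein, at -2.58 ± 0.22, or 5.98-fold lower, in the authors' deposited table. They were followed by the anion transporter Slc26a1 at -2.21 ± 0.19, the stromal cell antigen Cd248 at -2.12 ± 0.24, the antiviral enzyme Rsad2 at -1.91 ± 0.14 and Tmem246 at -1.91 ± 0.22 in the authors' deposited table. The epoxide hydrolase Ephx2 at -1.86 ± 0.20, the septin Septin4 at -1.83 ± 0.19, the protease gene Prss50 at -1.80 ± 0.19 and the tyrosine phosphatase Ptpn14 at -1.79 ± 0.19 completed the 10 in the authors' deposited table. All 20 had an adjusted p of 7.34e-11 or less.

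Against Npm1, the 10 highest genes gave 1 difference past the z test, and it was lower in Double. That gene was Mgat4c, at 3.00 ± 0.22 in the authors' deposited table of Npm1, a difference of -1.0 ± 0.34 (adjusted p = 0.0459). Against Smc3, all 8 of the highest genes that could be tested were higher in Double. Of the 10 lowest genes 9 were lower in Double than in Npm1 and 8 lower than in Smc3. Spon2 stood at -0.66 ± 0.23 in Npm1 and -0.68 ± 0.23 in Smc3 in the authors' deposited tables, so that Double lay lower by -2.38 ± 0.30 (adjusted p = 5.29e-11) and -2.37 ± 0.30 (adjusted p = 1.75e-11). Tinagl1, in contrast, stood at -2.44 ± 0.21 in the authors' deposited table of Npm1, and its difference of -0.14 ± 0.30 did not pass (adjusted p = 0.986). The genes were picked for their size in Double, which enters each difference, so these counts are a description. Over all genes 6.99% passed for Double minus Npm1, 4.09% higher and 2.89% lower in Double, and 0.262% for Double minus Smc3, 0.0801% higher and 0.182% lower. The comparisons share the WT libraries, which the variance of the z test leaves out and which makes it too large.

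**Figure D2:**
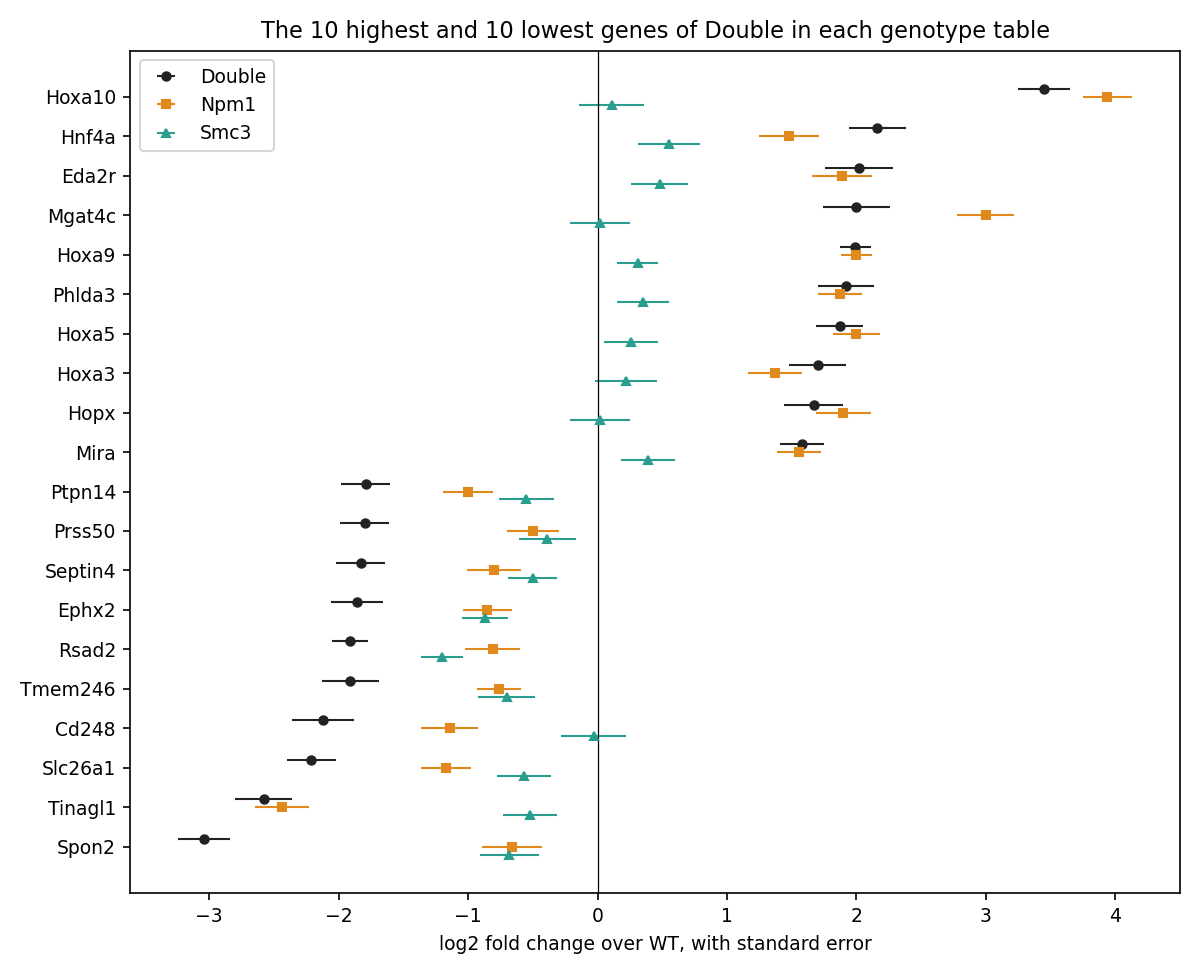
Log2 fold change over WT (horizontal axis, bars are standard errors) of the 10 highest and 10 lowest genes of Double, in Double (black circles), Npm1 (orange squares) and Smc3 (green triangles). The Hox genes lie near their Npm1 values and far from their Smc3 values, while Spon2 lies at -3.04 in Double and at -0.66 and -0.68 in the other genotypes.

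Genes of early neutrophil development were higher in Double. Of 12 tested primary granule and promyelocyte genes 9 rose, or 75.0%, and 0 fell, against 8.87% and 9.82% of all tested genes. The list's median was 0.56 in Double, -0.50 in Npm1 and 0.64 in Smc3, comparisons that share the WT libraries. Mpo, which encodes myeloperoxidase, was the most abundant gene of the whole comparison that rose, at 0.56 ± 0.16 (q = 0.00601) and a mean of 89610 normalized counts in the authors' deposited table. The protease genes Elane and Ctsg rose by 0.81 ± 0.16 (q = 2.59e-05) and 0.61 ± 0.14 (q = 0.000199), and the protease inhibitor gene Cst7 by 0.87 ± 0.11 (q = 3.74e-12), in the authors' deposited table. Of 17 tested myeloid transcription factors 2 rose and 1 fell, or 11.8% and 5.88%, near the shares of all tested genes. Among them Gfi1, a transcription factor of the granulocyte branch, rose by 0.66 ± 0.19 (q = 0.00414) in the authors' deposited table. Its erythroid relative Gfi1b fell to -0.74 ± 0.19 (q = 0.00121) there. Genes of late granules showed the opposite sign without a test. Of 13 measured late granule genes 11 had no p, and Ltf, Camp and Ngp, for example, stood at -0.56 ± 0.23, -0.59 ± 0.24 and -0.52 ± 0.24 in the authors' deposited table. Of the 2 with an adjusted p, 0 were called by the authors' DESeq2 test. DESeq2 withholds the p of a gene whose counts include an outlying library, and which library that was is not recorded in the tables. Ltf, Camp and Ngp also had no p in the comparisons of Npm1 and of Smc3 with WT, while S100a8 lacked it in Npm1 and not in Smc3. The WT libraries are common to all 3 comparisons, and a part of a WT library in these values was not tested.

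Eosinophil, basophil and mast cell genes rose most among the lineage lists apart from the primary granule genes. Of 20 tested members 10 were higher and 0 lower, against 8.87% and 9.82% of all tested genes, with a median of 0.54. The eosinophil granule proteins Prg2 and Epx rose by 1.18 ± 0.26 (q = 0.000172) and 1.10 ± 0.26 (q = 0.000415), and Il5ra, the receptor chain for the eosinophil cytokine interleukin 5, by 1.13 ± 0.26 (q = 0.00028), in the authors' deposited table. The mast cell and basophil protease gene Cpa3 rose by 0.85 ± 0.17 (q = 3.29e-05) in the authors' deposited table. The near-identical ribonuclease genes Ear1, Ear2 and Ear6 share reads, so their 3 calls are not separate evidence. The list had a median of -0.41 in Npm1 and 0.92 in Smc3.

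Of 21 monocyte and macrophage genes 8 rose and 2 fell, or 38.1% and 9.52%, against 8.87% and 9.82% of all tested genes. The list's median was 0.36 in Double, -0.29 in Npm1 and 0.30 in Smc3. The coagulation factor gene F13a1 rose by 1.04 ± 0.14 (q = 8.48e-12), the chemokine receptor gene Ccr2 by 0.75 ± 0.14 (q = 3.95e-06) and the monocyte antigen gene Ly6c2 by 0.80 ± 0.21 (q = 0.00236) in the authors' deposited table. The members that fell, C1qa at -0.92 ± 0.26 (q = 0.00523) and C1qc at -0.75 ± 0.26 (q = 0.0256) in the authors' deposited table, encode chains of complement C1q made by mature macrophages. Of 17 dendritic cell genes 4 rose and 1 fell, or 23.5% and 5.88%, and 2 rose with the GC trend removed. This list's median was 0.24 in Double, -0.23 in Npm1 and 0.46 in Smc3. The plasmacytoid antigen gene Siglech rose by 0.94 ± 0.26 (q = 0.00429), and Zbtb46, a factor of classical dendritic cells, fell to -0.56 ± 0.19 (q = 0.0217), in the authors' deposited table.

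Of all the lists, the erythroid genes had the largest share of lowered members. Of 39 tested members 31 fell and 0 rose, against 9.82% and 8.87% of all tested genes, with a median of -0.64, and 29 fell with the GC trend removed. Globin rows with identical values share reads, and over the 36 distinct rows 29 fell. Regulators, haem enzymes, globins and membrane proteins were among the members that fell. Among regulators, Klf1 fell to -0.74 ± 0.14 (q = 8.42e-06) and Gata1 to -0.53 ± 0.17 (q = 0.0148), and the erythropoietin receptor gene Epor to -0.78 ± 0.16 (q = 2.22e-05), in the authors' deposited table. In haem synthesis, the first enzyme Alas2 fell to -1.29 ± 0.17, or 2.45-fold lower (q = 2.07e-12), and Urod to -0.89 ± 0.13 (q = 4.37e-10), in the authors' deposited table. The alpha globin gene Hba-a1 fell to -1.20 ± 0.17 (q = 3.86e-10), the anion exchanger Slc4a1 of the red cell membrane to -1.14 ± 0.21 (q = 3.2e-06), and Tmcc2 most of all, to -1.49 ± 0.16 (q = 7.12e-17), in the authors' deposited table. Members that did not pass were Rhag at 0.07, Car1 at 0.05, Cpox at -0.01, the beta globin pair Hbb-b2 and Hbb-bt at -0.05, Tfrc at -0.18, Slc25a37 at -0.23 and Car2 at -0.25. The erythroid list had a median of 0.05 in Npm1 and -0.41 in Smc3, with 12 and 20 members called in either direction. In the authors' deposited table of Npm1, Tmcc2 stood at -1.21 ± 0.16 and Alas2 at -0.72 ± 0.17. Hba-a1 stood there at -0.53 ± 0.17 and Epor at -0.07 ± 0.09. The differences of Double from Npm1 did not pass the z test for Tmcc2, Alas2 and Hba-a1 (adjusted p = 0.619, 0.136 and 0.0644). For Epor the difference of -0.71 ± 0.18 passed it (adjusted p = 0.00372). The Double samples also held the higher myeloid lists given above, and the part of either lineage's share of cells in the other's values was not tested.

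GATA1 binds the letters AGATAA, and the promoters of the 2 erythroid genes with the smallest p that hold them are shown because these genes carry the deepest falls of the list. The windows are RefSeq promoters on build GRCm38.p6, from 250 bases before to 50 bases after the gene's start, with the match in capitals. Tmcc2 lies at chr1:132367899-132368198 on the minus strand and Alas2 at chrX:150547167-150547466 on the plus strand, and both matches read TTATCT, the letters of the opposite strand.
Tmcc2: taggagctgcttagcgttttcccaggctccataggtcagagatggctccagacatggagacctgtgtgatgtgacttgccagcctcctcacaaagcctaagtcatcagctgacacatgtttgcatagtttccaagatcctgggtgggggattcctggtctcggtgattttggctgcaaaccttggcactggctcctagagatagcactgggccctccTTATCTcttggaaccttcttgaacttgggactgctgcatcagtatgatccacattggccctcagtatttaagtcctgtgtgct
Alas2: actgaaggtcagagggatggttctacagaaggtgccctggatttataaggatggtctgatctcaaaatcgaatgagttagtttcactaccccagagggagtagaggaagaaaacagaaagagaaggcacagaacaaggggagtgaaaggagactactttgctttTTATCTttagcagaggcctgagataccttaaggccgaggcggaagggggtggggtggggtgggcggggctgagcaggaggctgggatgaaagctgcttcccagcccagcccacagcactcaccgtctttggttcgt
On either strand, AGATAA stood in the windows of 9 of 21 lowered erythroid genes with a promoter in the reference, or 42.9%, and of 1 of 4 erythroid genes not called. Of all 27025 promoters 12.7% held it, and of those of tested genes 8.14%. A match is a description of the letters and shows no binding, and this motif was chosen after the values were seen.

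Type I interferon genes, which cells switch on after sensing virus or double-stranded RNA, were lower. Of 38 tested members 15 fell and 1 rose, or 39.5% and 2.63%, against 9.82% and 8.87% of all tested genes. The median was -0.38, and 16 fell and 0 rose with the GC trend removed. Rsad2, the antiviral enzyme viperin, fell to -1.91 ± 0.14, or 3.77-fold lower (q = 1.43e-38), and Isg15, a ubiquitin-like modifier, to -1.77 ± 0.25 (q = 2.8e-10), in the authors' deposited table. The oligoadenylate synthetase genes Oas3 and Oasl1 fell to -1.37 ± 0.22 (q = 8.84e-08) and -1.41 ± 0.16 (q = 9.44e-16), and the membrane protein gene Ifitm1 to -1.40 ± 0.19 (q = 6.14e-11), in the authors' deposited table. The pathway's own amplifier Irf7 fell to -1.33 ± 0.22 (q = 5.54e-08), while the signalling factors Stat2 and Irf9 stood at -0.03 and -0.22 without passing the test, in the authors' deposited table. The guanylate-binding protein gene Gbp3 was the member that rose, at 0.36 ± 0.13 (q = 0.045) in the authors' deposited table. The list was also below WT in the other genotypes, with medians of -0.60 in Npm1 and -0.12 in Smc3, and all 3 comparisons share the WT libraries. A part of the WT libraries in these values was not tested.

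Interferon-activated factors bind the interferon-stimulated response element, searched here as GAAA, any 2 bases, and GAAA again. The windows of the 3 lowered members with the smallest p that hold it are shown to place the match, in capitals, within each window. They come from RefSeq on build GRCm38.p6, all on the minus strand, for Rsad2 at chr12:26456403-26456702, Isg15 at chr4:156200769-156201068 and Oas3 at chr5:120777610-120777909.
Rsad2: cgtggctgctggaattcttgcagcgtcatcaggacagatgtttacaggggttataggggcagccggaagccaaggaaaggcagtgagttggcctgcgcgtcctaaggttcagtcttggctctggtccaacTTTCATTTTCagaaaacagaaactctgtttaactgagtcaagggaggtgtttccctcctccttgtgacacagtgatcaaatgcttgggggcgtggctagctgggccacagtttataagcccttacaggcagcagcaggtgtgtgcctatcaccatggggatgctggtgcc
Isg15: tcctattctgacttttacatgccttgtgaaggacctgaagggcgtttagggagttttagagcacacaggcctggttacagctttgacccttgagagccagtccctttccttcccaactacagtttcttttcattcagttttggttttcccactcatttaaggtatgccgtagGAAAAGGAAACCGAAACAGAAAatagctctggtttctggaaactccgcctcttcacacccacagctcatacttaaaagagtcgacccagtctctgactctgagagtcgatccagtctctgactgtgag
Oas3: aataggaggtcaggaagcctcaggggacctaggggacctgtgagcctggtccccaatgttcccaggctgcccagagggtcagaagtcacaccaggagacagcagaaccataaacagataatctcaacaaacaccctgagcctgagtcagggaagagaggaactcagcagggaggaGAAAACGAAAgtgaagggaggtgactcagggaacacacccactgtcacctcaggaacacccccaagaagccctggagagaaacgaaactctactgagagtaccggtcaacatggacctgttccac
In Isg15 the capitals join 3 overlapping matches from position -78 to -57. In Oas3 the match begins at position -75, and in Rsad2 it runs from position -120 to -111, counted from the start, on the opposite strand. The motif, on either strand, stood in 7 of 12 lowered members with a promoter in the reference, or 58.3%, and in 9 of 15 members not called, while 3.99% of all promoters and 3.71% of those of tested genes held it. The letters were thus common across the interferon list and no more frequent in the members that fell.

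**Figure D3:**
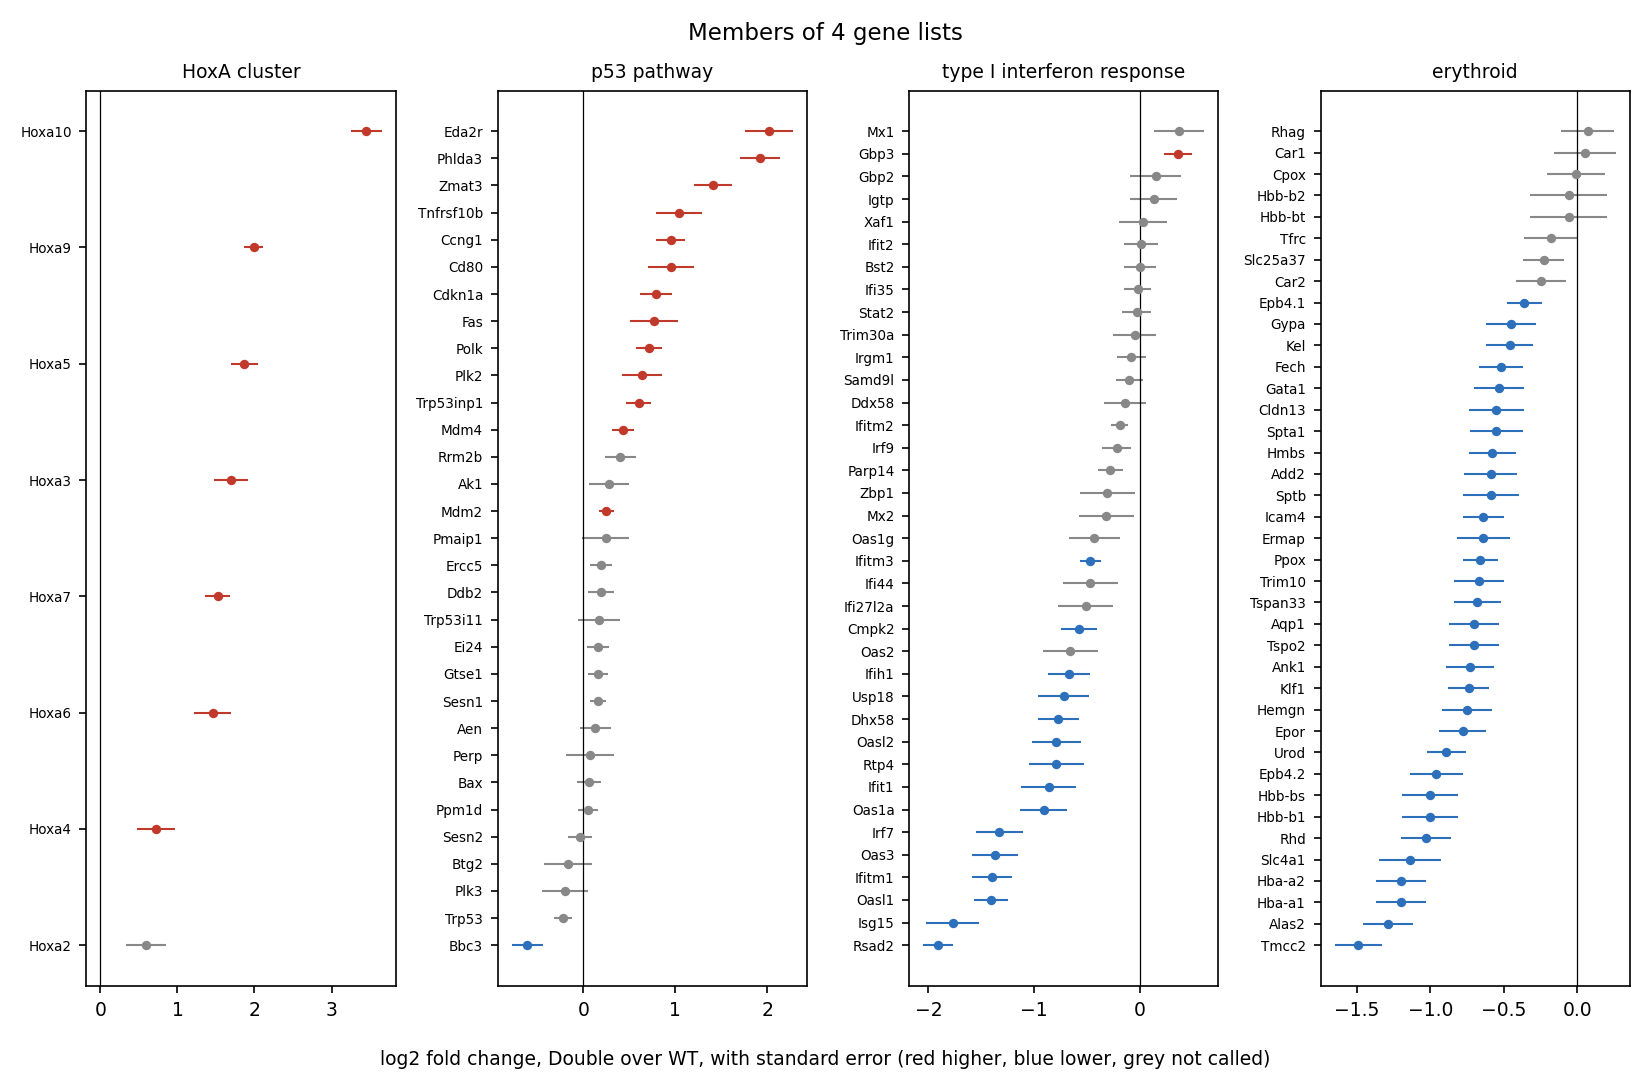
Log2 fold change of Double over WT (horizontal axes, bars are standard errors) for tested members of the HoxA, p53, interferon and erythroid lists. Red points were called higher, blue lower and grey not called. In the HoxA panel 7 of 8 members are red, and in the erythroid panel 31 of 39 are blue, while the p53 and interferon panels split between called and uncalled members.

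Genes of DNA replication fell by small amounts. Of 36 tested replication licensing and S phase genes 13 fell, or 36.1%, and 0 rose, against 9.82% and 8.87% of all tested genes. With the GC trend removed 13 fell. The list's median was -0.21 in Double, 0.08 in Npm1 and -0.20 in Smc3. The licensing factor Cdt1 fell to -0.54 ± 0.10 (q = 8.25e-06), the polymerase subunit Pold1 to -0.45 ± 0.09 (q = 9.42e-06) and the helicase subunits Mcm2 and Mcm5 to -0.38 ± 0.10 (q = 0.00143) and -0.34 ± 0.10 (q = 0.00374) in the authors' deposited table. Among cell cycle regulators, E2f2, a driver of S phase genes, fell to -0.67 ± 0.12 (q = 2.15e-06), while the cyclins Ccnd1 and Ccnd2 rose by 0.57 ± 0.14 (q = 0.000763) and 0.55 ± 0.16 (q = 0.00745), in the authors' deposited table. Ccnd3, another D cyclin, fell to -0.44 ± 0.13 (q = 0.00882) in the authors' deposited table, a call that ended with the GC trend removed (adjusted p = 0.103). Of 30 mitosis and spindle genes 0 rose and 4 fell, or 13.3%, near the 9.82% of all tested genes. Of 25 histone genes 0 rose and 5 fell, led by the variants H2afj at -0.84 ± 0.12 (q = 3.52e-10) and H2afx at -0.67 ± 0.12 (q = 4.13e-06) in the authors' deposited table. Unlike the S phase list, the histone list had a median of -0.29 in Npm1 and -0.04 in Smc3, beside -0.35 in Double. H2afj stood at -1.20 ± 0.13 in Npm1 and -0.12 ± 0.12 in Smc3 in the authors' deposited tables. H2afx stood there at -0.98 ± 0.10 and -0.01 ± 0.11.

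Respiratory chain and ribosomal protein genes, whose transcripts are short, also fell by small amounts. Of 47 respiratory chain subunits 16 fell, or 34.0%, and 0 rose. Of 51 cytosolic ribosomal proteins 13 fell, or 25.5%, and 0 rose, against 9.82% and 8.87% of all tested genes. The respiratory chain median was -0.23 in Double, -0.01 in Npm1 and -0.21 in Smc3. The ribosomal protein median was -0.22 in Double, -0.10 in Npm1 and -0.24 in Smc3. Cox6a1 of complex IV fell to -0.54 ± 0.12 (q = 0.000128) and Uqcrfs1 of complex III to -0.44 ± 0.09 (q = 9.81e-05) in the authors' deposited table. Rpl13 fell to -0.40 ± 0.09 (q = 0.000278) and the elongation factor gene Eef2, the most abundant gene called, to -0.36 ± 0.08 (q = 0.000131) in the authors' deposited table. Among the nucleolar genes that assemble ribosomes, the setting in which nucleophosmin works, 1 of 37 tested members fell and 0 rose, with a median of -0.07. Of 44 mitochondrial ribosomal proteins 5 fell and 0 rose, a lowered share of 11.4% near the 9.82% of all tested genes, and 2 fell with the GC trend removed. Mean level ran along with the direction of calls across all genes, as given below, and its part in these lists was not tested.

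Genes of the endoplasmic reticulum were among the abundant genes that rose. The chaperones Calr and Hsp90b1 and the disulfide isomerase P4hb rose by 0.25 ± 0.08 (q = 0.0174), 0.37 ± 0.09 (q = 0.000659) and 0.24 ± 0.08 (q = 0.0183) in the authors' deposited table. Of 30 unfolded protein response and amino acid starvation genes 6 rose and 1 fell, or 20.0% and 3.33%, against 8.87% and 9.82% of all tested genes. With the GC trend removed 4 rose and 1 fell, and the calls of Dnajc3, Edem1 and Pdia6 ended (adjusted p = 0.363, 0.125 and 0.0676). The sensor Ern1 rose by 0.44 ± 0.13 (q = 0.00797), and Asns, an amino acid starvation target, fell to -0.54 ± 0.14 (q = 0.00225), in the authors' deposited table. The members that rose fold or export proteins in the endoplasmic reticulum or sense load there, whereas Asns makes asparagine.

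Receptor, signalling and identity genes of progenitors were called in both directions. Of 34 cytokine receptor and JAK-STAT genes 7 rose and 4 fell, or 20.6% and 11.8%. Of all tested genes 8.87% were higher and 9.82% lower, so the lowered share was near theirs. The interleukin 6 receptor chains Il6ra and Il6st rose by 0.70 ± 0.21 (q = 0.00826) and 0.44 ± 0.15 (q = 0.029) in the authors' deposited table. The transcription factor Stat3 rose by 0.45 ± 0.14 (q = 0.0134), and Stat5a and Stat5b fell to -0.34 ± 0.08 (q = 0.000809) and -0.33 ± 0.09 (q = 0.00219), in the authors' deposited table. Of 27 integrin, selectin ligand and homing genes 5 rose, or 18.5%, and 0 fell. The marrow homing receptor Cxcr4 rose by 0.89 ± 0.19 (q = 6.94e-05) and the integrin chain Itgav by 0.62 ± 0.14 (q = 0.00028) in the authors' deposited table. Of 23 stem and multipotent progenitor genes 5 rose and 1 fell, or 21.7% and 4.35%. With the GC trend removed 3 of them rose and 2 fell. The member that fell, Pdzk1ip1, stood at -0.79 ± 0.19 (q = 0.000596) in the authors' deposited table. Cd48, a surface antigen that stem cells lack and later progenitors carry, rose by 1.00 ± 0.13 (q = 6.16e-12), and Flt3 and Cd34 rose by 0.57 ± 0.19 (q = 0.0245) and 0.43 ± 0.15 (q = 0.0241), in the authors' deposited table. Kit stood at -0.12 ± 0.09 (q = 0.372) and Ly6a at -0.01 ± 0.24 (q = 0.991) in the authors' deposited table. Hlf, a transcription factor of the earliest stem cells, rose by 0.66 ± 0.21 (q = 0.0179) in the authors' deposited table. The calls of Hlf and Cd34 ended with the GC trend removed (adjusted p = 0.0608 and 0.052).

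Of 18 TGF-beta, BMP and Id genes 4 fell and 1 rose, or 22.2% and 5.56% against 9.82% and 8.87% of all tested genes, with Id3, which blocks helix-loop-helix factors, at -1.36 ± 0.26 (q = 8.49e-06), the inhibitory Smad7 at -0.80 ± 0.22 (q = 0.00314) and the co-receptor Eng at -0.69 ± 0.11 (q = 6.6e-09) in the authors' deposited table. The list's median of 0.07 had the opposite sign to most of its calls. Spry4 and Phlda1, feedback genes of ERK signalling, fell to -1.03 ± 0.22 (q = 0.000111) and -0.94 ± 0.24 (q = 0.00172) in the authors' deposited table, 2 of 16 tested members, a share of 12.5% near that of all tested genes. Of 26 immediate early genes only Fosl1 fell, at -0.82 ± 0.25 (q = 0.0114) in the authors' deposited table, although 24 of the 26 had a negative fold change and the median was -0.30. In Notch and Wnt signalling, with 2 higher and 2 lower of 27, the Notch feedback gene Nrarp fell to -1.18 ± 0.21 (q = 1.17e-06) and the Wnt antagonist Sfrp4 rose by 0.96 ± 0.22 (q = 0.000258) in the authors' deposited table. The desaturase Scd1 fell to -1.16 ± 0.24 (q = 5.73e-05) among 26 cholesterol and lipid genes, of which 3 fell and 1 rose, in the authors' deposited table.

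Markers of other cell types were called at shares near or below those of all tested genes, which were 8.87% higher and 9.82% lower. Of 19 T and NK cell genes 2 rose and 0 fell, of 17 B lymphoid genes 0 rose and 2 fell, of 8 plasma cell genes 0 rose and 0 fell, and of 19 stromal and endothelial genes 2 rose and 0 fell by the authors' DESeq2 test. The members of the B lymphoid list that were measured had means of 0.299 to 364.3 normalized counts and those of the T and NK cell list of 6.37 to 294.4 in the authors' deposited table. Rag1, the recombinase of lymphoid progenitors, fell to -1.10 ± 0.26 (q = 0.000506), and the pericyte receptor gene Pdgfrb rose by 0.77 ± 0.17 (q = 0.000118), in the authors' deposited table. Of 18 megakaryocyte and platelet genes 1 rose and 1 fell, Ppbp at 1.39 ± 0.23 (q = 2.55e-07) and Selp at -0.86 ± 0.22 (q = 0.00122) in the authors' deposited table. Among inflammatory genes, where 2 of 24 rose and 2 fell, the chemokine gene Ccl9 rose by 0.94 ± 0.13 (q = 1.33e-11) and Il1b fell to -1.02 ± 0.26 (q = 0.0016) in the authors' deposited table. Against the same shares of all tested genes, calls were made in the lists of class I antigen presentation (1 higher and 0 lower of 20), DNA repair (1 and 1 of 26), the Bcl2 family (0 and 2 of 13), the proteasome (0 and 2 of 31), glycolysis and hypoxia (3 and 2 of 28) and DNA methylation regulators (1 and 2 of 14).

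**Figure D4:**
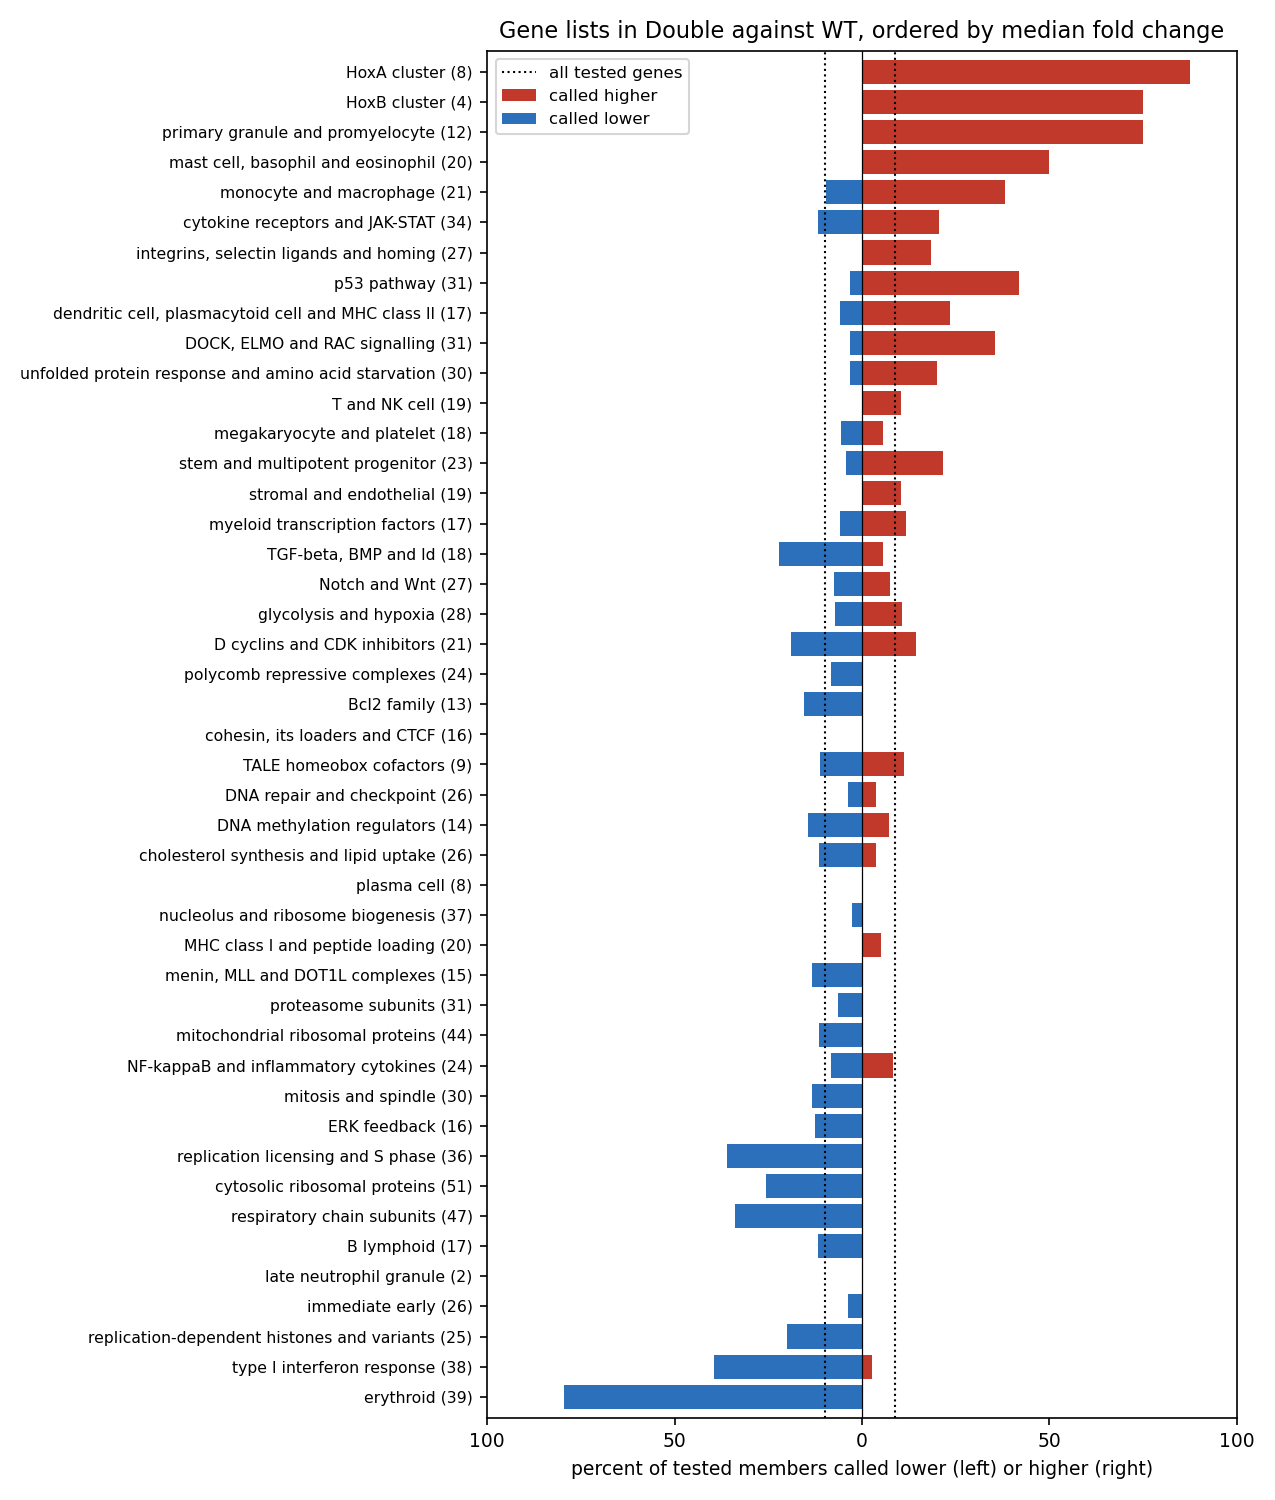
Percent of tested members called lower (blue, to the left) and higher (red, to the right) in Double for 45 gene lists, ordered by their median log2 fold change, with the number of tested members in brackets. The dotted lines mark all tested genes, 8.87% higher and 9.82% lower. The HoxA list at the top has 87.5% of its members higher and the erythroid list at the bottom 79.5% lower.

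The direction of change followed the composition of the transcript. In the quartile of lowest GC content 16.0% of tested genes were higher and 2.56% lower, and in the highest quartile 2.95% were higher and 20.0% lower. Genes called higher had a median GC content of 46.2% and those called lower of 55.2%, beside 50.4% for all tested genes. The fold change fell by 0.157 on the log2 scale for each 10 points of GC content. Long transcripts were more often higher, with 12.6% higher and 7.64% lower in the longest quartile and 5.39% and 11.8% in the shortest. By mean level, the most abundant quartile had 6.08% higher and 15.6% lower. Removing the linear GC trend left 1884 genes changed, 797 higher and 1087 lower. Among the genes named in this text, besides those said above, the calls of Gbp3 (adjusted p = 0.172), Il6st (adjusted p = 0.0827) and C1qc (adjusted p = 0.069) ended with it. The libraries of Double were also the deeper ones, and a part of depth or of library preparation in the trend was not tested.

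**Figure D5:**
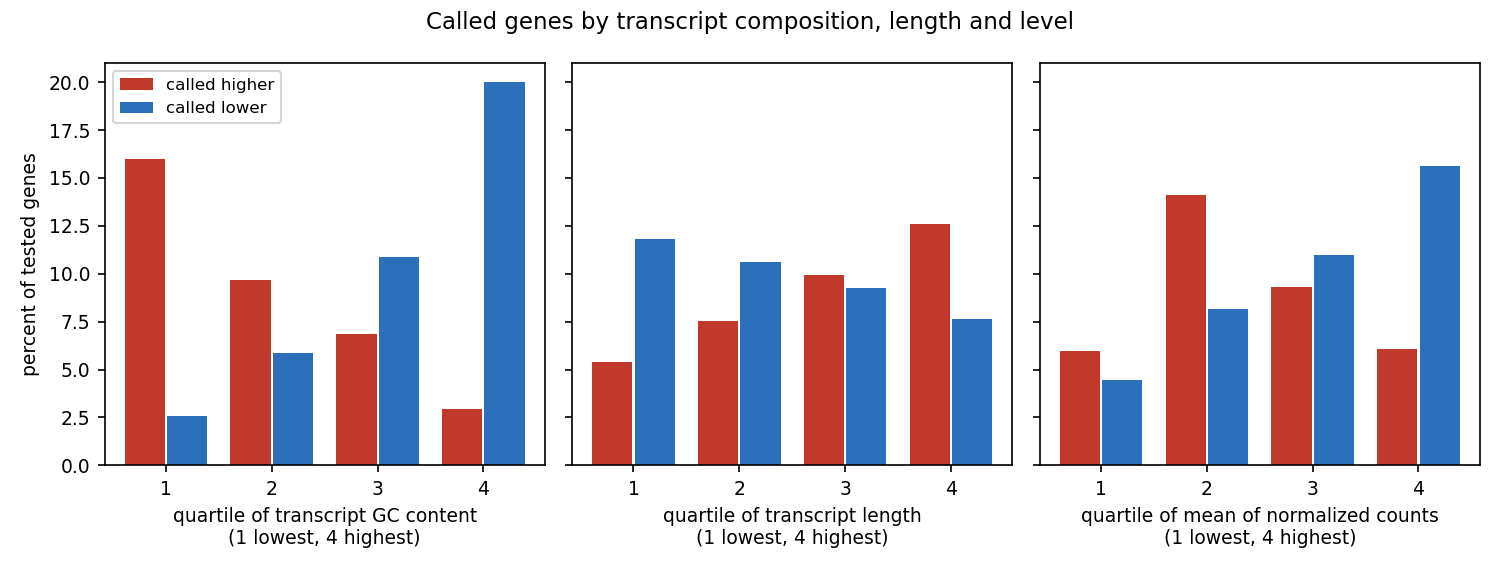
Percent of tested genes called higher (red) and lower (blue) in Double, in quartiles of transcript GC content, of transcript length and of the mean of normalized counts. The shares cross over from low to high GC, from 16.0% higher and 2.56% lower to 2.95% higher and 20.0% lower.

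Position and gene family showed further groupings, which were chosen after the values were seen. Zinc finger genes with symbols starting Zfp, many of them repressors of transposons, were higher in 84 and lower in 11 of 312 tested members, with a median of 0.24. Their median GC content was 45.8%, and with the GC trend removed 30 were higher and 4 lower. Runs of neighbouring Zfp genes were higher on chromosome 13 (6 genes from Zfp459 to Zfp748) and chromosome 17 (5 genes from Zfp677 to Zfp52). All 9 tested Ugt genes, which encode glucuronosyltransferases, were higher, but the Ugt1a genes share exons and their reads. Lectin receptor genes named Clec were higher in 8 and lower in 0 of 18 members, and Toll-like receptor genes higher in 4 and lower in 0 of 11, against 8.87% higher among all tested genes. With the GC trend removed 4 Clec and 2 Toll-like receptor genes were higher. Of the 8 tested Abcb transporter genes 5 were lower and 1 higher. Runs of 7 lowered neighbours stood on chromosome 10, from Mex3d to Abhd17a, and on chromosome 19, from Incenp to Fen1. By chromosome, against 8.87% higher and 9.82% lower over all tested genes, the share of higher genes was 14.1% on chromosome 13, 13.9% on 1, 12.7% on 3 and 12.4% on X, where 4.13% were lower. The share of lower genes was 14.2% on chromosome 19 and 13.2% on 17. These shares were counted without removing the GC trend, and sex differed along with genotype in at least part of the Double libraries. A part of either in them was not tested.

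Transcripts of the same gene were not called in opposite directions. Of 3635 genes with several tested transcripts, 612 had every transcript called in a direction, 130 had some called and 2893 had none. Genes with calls both ways numbered 0 by the authors' DESeq2 test, and transcripts of a gene share reads.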

How the data were processed

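RNA was read from HSPCs of the Double and WT groups, 3 libraries each. Per the labels' protocols, poly(A) libraries were made from Trizol RNA with a NEBNext Ultra II kit. Per the submitters' processing notes, reads were aligned with STAR to mm9 and compared with DESeq2, with no version given in the sources used. Per the file headers, the authors deposited for 33018 RefSeq transcripts a mean of normalized counts (signal), a log2 fold change with its standard error, a Wald statistic (score), p-values and adjusted p-values. No values per library were used, since the tables hold none, and each table was normalized by itself.

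One transcript was kept per symbol, 53 symbols turned into dates were matched by accession, and calls are the authors' adjusted p under 0.05. Differences between genotypes were tested with a normal z test on summed squared standard errors, with Benjamini-Hochberg adjustment. The method was run on simulated data with independent normal errors drawn from the same standard errors. That simulation held no shared WT libraries and no moderated estimates, so it cannot show how the test behaves with them. GC content and length came from GENCODE M21 transcripts for 99.4% of tested genes, and promoters from RefSeq GRCm38.p6. Size factors rested on 3428 transcripts that were whole reads within a relative tolerance of 1e-08. Computations used Python 3.11.15, pandas 2.3.3, numpy 2.4.6 and scipy 1.17.1.

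Genes named are Smc3, Npm1, Dock1, Rac2, Hoxa9, Hoxa10, Meis1 and Cdkn1a, the 10 highest and 10 lowest called log2 fold changes with a mean of at least 50, the 5 most abundant called in each direction, and up to 4 members with the smallest p of each of 47 lists, leaving out receptor segments and symbols starting Gm with digits or ending in Rik. Some genes are not reported here. Other named genes were chosen after their values were seen. The members, lists and tests were chosen with earlier results of these data known. Alternative thresholds, adjustments, filters, transcript choices, centring and removal of GC and length trends were tried. The labels do not say whether libraries of a group are separate mice.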

Additional observations from a re-analysis of the deposited data

Results flagged for a closer look

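The 10 highest and 10 lowest genes of Double stood out where their difference from another genotype, in log2 fold change over WT, passed the z test. Double lay above Smc3 by 3.34 for Hoxa10, 1.98 for Mgat4c, 1.69 for Hoxa9, 1.65 for Hopx, 1.61 for Hoxa5, 1.60 for Hnf4a, 1.48 for Hoxa3 and 1.19 for Mira. It lay on the other side of Smc3 at -2.37 for Spon2, -2.09 for Cd248, -2.06 for Tinagl1, -1.64 for Slc26a1, -1.41 for Prss50, -1.34 for Septin4, -1.24 for Ptpn14 and -1.21 for Tmem246.

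Against Npm1 the differences that passed were -2.38 for Spon2, -1.30 for Prss50, -1.15 for Tmem246, -1.11 for Rsad2, -1.03 for Slc26a1, -1.03 for Septin4, -1.01 for Ephx2, -1.0 for Mgat4c, -0.98 for Cd248 and -0.79 for Ptpn14. These genes were picked for their size in Double, and the comparisons share WT.

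The Y-linked genes, which no comparison of the study names, had a summed mean of 2280 normalized counts in Double and WT in the authors' deposited table, beside 3.8 in Npm1 and WT. Sex differed along with genotype in at least part of the Double libraries.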

How the results depend on the processing

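The counts of genes changed, higher and lower in Double, and of list genes changed (2470, 1172, 1298 and 253), stayed within 1.5 times under every alternative but these. At an adjusted p under 0.01 they were 1410, 595, 815 and 166. With linear GC and length trends removed, an alternative chosen after seeing the data, 765 genes were higher. The differences from Npm1 and Smc3 numbered 1282 and 49, and 3744 and 259 with a correlation of 0.5 for the shared WT libraries. Over the other alternatives the genes changed numbered 1865 to 3193, with 2398 when genes on X and Y were left out, also chosen after seeing the data. The share of calls that were higher was 47.4%, and 42.3% with the GC trend removed. Of 94 counts of list members by direction, 26 moved by over 1.5 times with the GC trend removed and 0 with the median fold change set to 0.

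No paired analysis was possible because the tables hold no values per library, and leaving out a library was not run for the same reason. The fold changes are moderated, which draws genes with few reads or much spread toward 0, and the lowest mean among tested genes was 9.35.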
